A study of Oryza sativa with 6 samples.

Results

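The cellulose synthase genes (CESA) and the cellulose synthase-like genes (CSL) were compared between rice leaf blades that overexpress Os-LBD37 and leaf blades with an empty vector. Members were the genes whose symbol or synonym in the RefSeq gene table was CESA with a number or CSL with a class letter and a number. The table held 35 such genes, and 29 of them, 9 CESA and 20 CSL genes, had a probe set of their own among the 17905 genes measured. The 6 without one were CSLA3, CSLA4, CSLE6, CSLF3, CSLF4 and CSLF9.

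Both groups were hygromycin-resistant transgenic rice (Oryza sativa) grown in hydroponic culture. The first group was the Os-LBD37 overexpressor, line RK16331-13, and the second was a line with the empty vector, each on 3 arrays labelled replicates 1 to 3. RNA came from the fifth and the sixth leaf blades, with the sampling day set by the emergence of the eighth leaf. Each group is 1 transgenic line, so what Os-LBD37 does and whatever else sets these lines apart cannot be told apart. The promoter that drives the transgene and the plants behind each array are not given in the sources used here, and the level of Os-LBD37 itself was not analysed here.

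Cellulose synthases are plasma membrane enzymes that polymerise glucose into the chains of cellulose microfibrils. In rice, CESA1, CESA3 and CESA8 are known from the primary walls of growing cells, with CESA2, CESA5 and CESA6 as related members, whereas CESA4, CESA7 and CESA9 make the cellulose of thick secondary walls in vessels and fibres, and their loss gives brittle culms. Several CSL classes make other wall polysaccharides. CSLF and CSLH proteins make the mixed-linkage glucan of grass walls, CSLA proteins make mannans and CSLC proteins the xyloglucan backbone in Arabidopsis, and CSLD proteins act in tip-growing and other expanding cells.

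The measured leaf transcripts showed a higher level of most primary-wall CESA genes in the overexpressor, with smaller mean differences for the secondary-wall genes. CESA1, CESA3, CESA5, CESA6 and CESA8 were each higher on all 3 overexpressor arrays than on any empty vector array, with mean log2 changes of 1.45 to 2.24. CESA4, CESA7 and CESA9 had log2 changes of 0.45 to 0.55 with overlapping lines, and these values moved by over 1.5 times when single empty vector arrays were left out. The 20 measured CSL genes had a median log2 change of 0.13, with 8 of them below 0. Of these 20, 4 were higher on every overexpressor array, CSLC7, CSLD2, CSLF6 and CSLH1, where 11.8% of all genes were. The other measured CSLF genes were below background. None of these differences passed the test over all genes in the fit without the replicate number, and CESA1 and CESA6 passed with it.

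The values are probe set intensities on a linear scale, already scaled by the authors to a like mean on each array. Differences are overexpressor minus empty vector on log2(intensity + 16), with the standard error (SE) of a limma fit over all probe sets and p-values adjusted by Benjamini-Hochberg over all 17905 genes at a threshold of 0.05. Background was set per array at the 95th percentile over 132 controls for transcripts that rice lacks. It was 45.4 on empty vector replicate 1 and between 27.3 and 32.4 on the other arrays. Leaf tissue carries many cell types, and in such bulk samples fewer cells of a type cannot be told apart from less RNA per cell.

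Arrays of the same line correlated at 0.954 to 0.980 in log2 values, and arrays of different lines at 0.939 to 0.967. On the replicate 2 arrays, 1059 genes departed over 2-fold from replicates 1 and 3 in the same direction in both lines, so values without both of these arrays are given where they bear on a result. As a sign of RNA quality, the log2 ratio between the 3 prime and the 5 prime probe sets of control transcripts ranged from 1.38 to 1.66 in the overexpressor and from 1.24 to 2.35 in the empty vector line, where replicate 2 had the highest value. Of 4 leaf mesophyll markers, CAB2R, RCA and GOS5 were above background on all arrays and RBCS1 on none. The 4 together had a summed intensity that ran from 41839 to 91494 in the overexpressor and from 72210 to 112376 in the empty vector line. GOS5 was lower on every overexpressor array, with a log2 change of -0.81 ± 0.23 (limma adjusted p = 0.175). RCA had a log2 change of -1.08 ± 0.67 with overlapping lines, and -1.62 without both replicate 2 arrays, where it passed (adjusted p = 0.0437). The 3 shoot meristem markers summed to 24.0 to 49.7 in the overexpressor and 15.4 to 49.2 in the empty vector line. The sums of the 5 dividing-cell markers were 110 to 181 in the overexpressor and 93.2 to 125 in the empty vector line. OSH1 and OSH43 of the meristem list, 2 of the 5 dividing-cell markers and the 1 root marker were above background on no array, and 0 of these marker genes passed with all 6 arrays. The part of these levels in the CESA and CSL values was not tested.

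Over all genes, 93 passed in the main comparison, which is 0.519% of those tested. Of the 29 CESA and CSL genes, 0 passed by limma. At an unadjusted p under 0.05 there were 8 higher and 1 lower in the overexpressor, against 14.2% of all genes, 8.49% higher and 5.66% lower. The lines did not overlap for 9 of the 29, all 9 higher in the overexpressor, against 21.2% of all genes, 11.8% higher and 9.36% lower. The median log2 change of the 29 was 0.32, with 20 above 0, against 0.01 over all genes, of which 50.7% were above 0. With the replicate number as a block, 2 of the 29 passed, both higher, against 1.31% of all genes, 0.855% higher and 0.452% lower. Without both replicate 2 arrays 0 of the 29 passed, against 1.33% of all genes. Background limits what the array shows of the family, since 16 of the 29 were above it on all 6 arrays and 4 on none. Of all 17905 genes, 13867 were above it on all 6 arrays and 1636 on none.

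**Figure D1:**
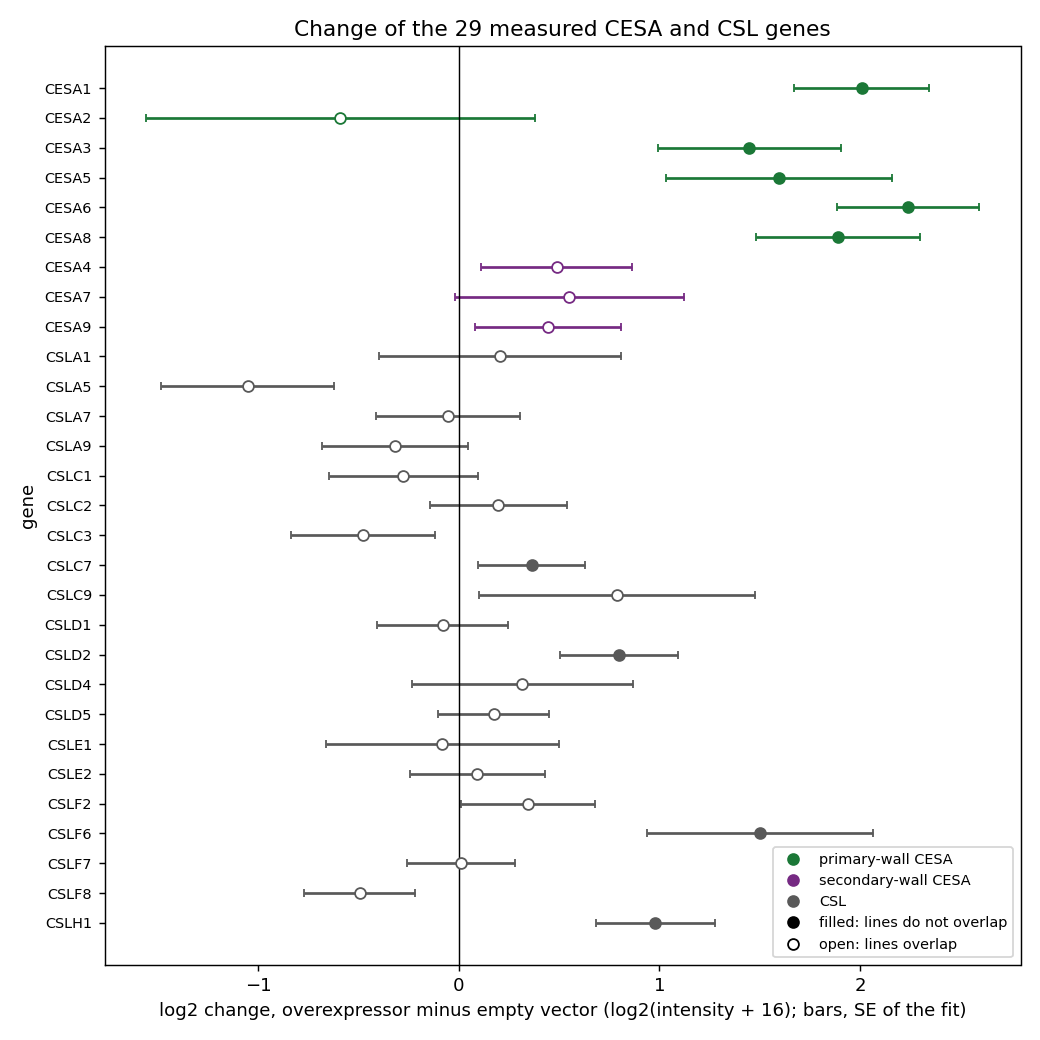
The log2 change of each of the 29 measured genes, overexpressor minus empty vector, on the horizontal axis, with bars for the SE of the fit. Filled points are the 9 genes whose lines do not overlap, and all 9 lie right of 0, 5 of them primary-wall CESA genes.

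Among the primary-wall genes, CESA6 had the smallest p of the family. It was at 831, 734 and 719 on the 3 overexpressor arrays, against 249, 138 and 92.9 on the empty vector arrays. The lowest overexpressor array was 2.89 times the highest empty vector array, and the overexpressor arrays differed among themselves by 1.16 times. The log2 change was 2.24 ± 0.35 (SE over 3 arrays a line), a 4.72-fold difference, with a limma adjusted p = 0.0542. It passed with the replicate block (adjusted p = 0.0406) and not without both replicate 2 arrays (adjusted p = 0.0873, log2 change 2.22).

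CESA1, a core subunit of the primary-wall complex, was at 2262, 1568 and 2489 in the overexpressor, against 760.2, 480.3 and 345 in the empty vector line. Every overexpressor array was at least 2.06 times the highest empty vector array. Its log2 change was 2.01 ± 0.33 (SE, 3 arrays a line; limma adjusted p = 0.0634), and it passed with the replicate block (adjusted p = 0.0485). The other probe set of the gene gave a log2 change of 1.86 ± 0.68, in the same direction, with overlapping lines.

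CESA8, another subunit of primary walls, was at 942, 1055 and 922 in the overexpressor, against 500.1, 170 and 181 in the empty vector line. The overexpressor arrays lay within 1.14 times of each other, while the empty vector arrays spread over 2.95 times. CESA8 had a log2 change of 1.89 ± 0.41 (SE, 3 arrays a line; limma adjusted p = 0.0991, and 0.0766 with the replicate block).

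CESA3, the third of the subunits known from primary walls, was at 3863, 2742 and 3889 in the overexpressor, against 2671, 771 and 954 in the empty vector line. The lines are separated by little here, since the lowest overexpressor array was 1.03 times the highest empty vector array. CESA3 had a log2 change of 1.45 ± 0.46 (SE, 3 arrays a line; limma adjusted p = 0.213). The other probe set of CESA3 had a log2 change of 1.69 ± 0.85 and overlapping lines, with empty vector values of 862, 47.7 and 334.

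CESA5 was at 563, 364 and 1165 in the overexpressor, against 297, 276 and 87.3 in the empty vector line. Both lines spread by more than 3 times within themselves, by 3.20 times in the overexpressor and 3.40 times in the empty vector line. Its log2 change was 1.59 ± 0.56 (SE, 3 arrays a line; limma adjusted p = 0.26).

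CESA2 was the 1 primary-wall gene with a log2 change below 0, and its values followed the replicate number. It was at 249, 23.7 and 237 in the overexpressor, against 330, 46.1 and 406 in the empty vector line, so replicate 2 was the lowest array of each line and below background in the overexpressor. Its log2 change was -0.59 ± 0.97 (SE, 3 arrays a line; limma adjusted p = 0.847). The other probe set of CESA2 ranged from 38.4 to 50.6 in the overexpressor and from 37.3 to 47.5 in the empty vector line, with no low value in replicate 2. These values lay close to background, which leaves little room for a drop to show.

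**Figure D2:**
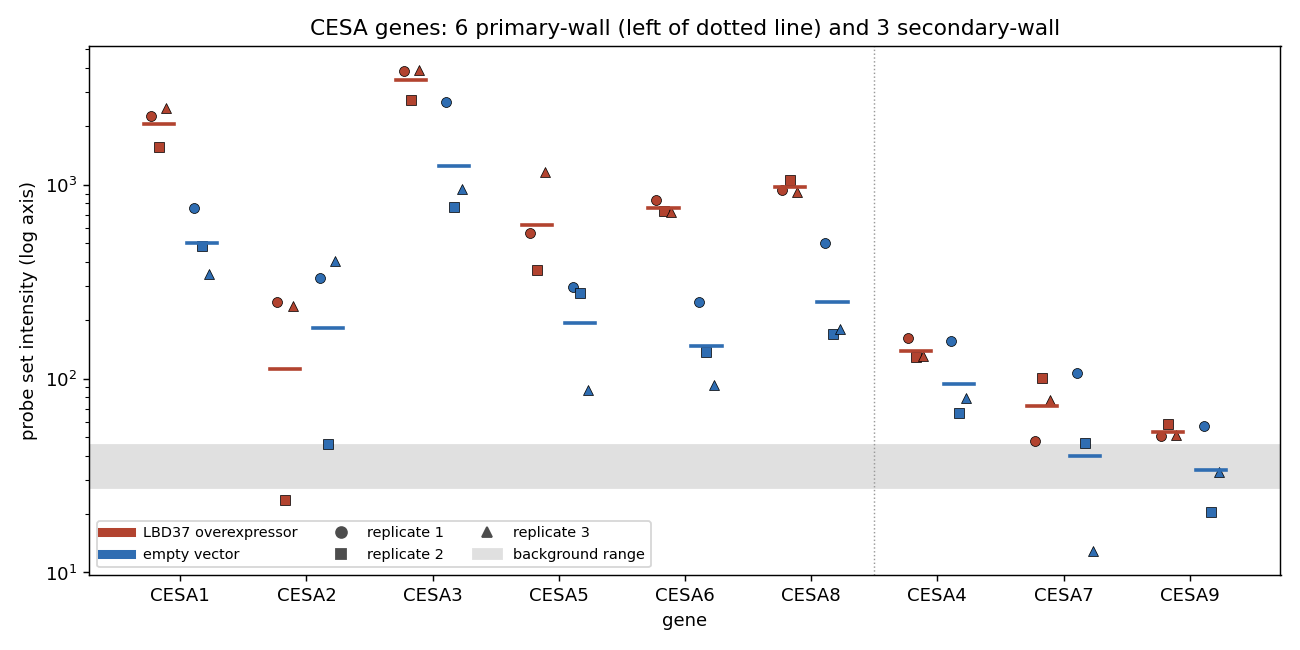
Probe set intensity of the 9 CESA genes on a log axis, with the overexpressor left of the empty vector for each gene, a symbol per replicate, a bar at the geometric mean and the range of background in grey. CESA1, CESA6 and CESA8 show lines well apart, CESA2 is low in replicate 2 of both lines, and CESA7 and CESA9 lie close to background.

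The secondary-wall genes were dim in these leaf blades. CESA4 was at 162, 128 and 130.1 in the overexpressor, against 157, 66.4 and 79.6 in the empty vector line, a difference of 0.49 ± 0.38 in log2 (SE, 3 arrays a line; limma adjusted p = 0.638). Empty vector replicate 1 lay within the overexpressor range. A second CESA4 probe set had 134, 122 and 68.4 in the overexpressor, against 124, 25.2 and 16.1, and a log2 change of 1.08 ± 0.60.

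CESA7 was at 47.6, 101 and 77.5 in the overexpressor, against 106, 46.3 and 13.0 in the empty vector line, where replicate 3 was below background. The CESA7 log2 change was 0.55 ± 0.57 (SE, 3 arrays a line; limma adjusted p = 0.732). CESA9 was at 50.4, 58.4 and 51.2 in the overexpressor, against 57.2, 20.6 and 32.9 in the empty vector line, and its log2 change was 0.45 ± 0.36 (adjusted p = 0.662). Replicate 2 of the empty vector line was below background for CESA9. For both genes the highest empty vector array was replicate 1, and the lines overlapped. That array also had the highest background of the 6, at 45.4. Over all alternatives the log2 change ranged from 0.27 to 0.81 for CESA4, from 0.02 to 1.06 for CESA7, lowest without empty vector replicate 3, and from 0.16 to 0.71 for CESA9, lowest without both replicate 2 arrays. Without empty vector replicate 2 it was 0.27 for CESA4 and 0.21 for CESA9.

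Set side by side, the 6 primary-wall genes had a median log2 change of 1.74, with 5 at an unadjusted p under 0.05, and the 3 secondary-wall genes had a median of 0.49, with 0 at that level. Over all genes 14.2% were at that level, 8.49% higher and 5.66% lower, and the median was 0.01. The difference between the classes was not tested. The 16 added before the logarithm understates the log2 changes of dim genes such as the secondary-wall ones. CESA4 was above background on all 6 arrays, and CESA7 and CESA9 each on 5.

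Empty vector replicate 1 was often the high array of its line. Of the 16 genes above background on all arrays, it was the highest of the 3 empty vector arrays for 12, or 75%, against 32.6% of all genes above background on all arrays. CESA1, CESA3, CESA4, CESA5, CESA6 and CESA8 were among them. With that array left out the log2 changes became 2.30 for CESA1, 1.99 for CESA3, 2.58 for CESA6 and 2.37 for CESA8, and 0 members passed. For the secondary-wall genes they became 0.81 for CESA4, 1.06 for CESA7 and 0.71 for CESA9. Leaving out the highest empty vector array raises such a difference by construction. Without empty vector replicate 3 the log2 changes were 1.75 for CESA1, 1.25 for CESA3, 1.08 for CESA5, 1.94 for CESA6 and 1.67 for CESA8. They were then 0.38 for CESA4, 0.02 for CESA7 and 0.42 for CESA9. In the overexpressor the highest array was replicate 1 for 5 of the 16 genes, replicate 2 for 4 and replicate 3 for 7.

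The mixed-linkage glucan classes CSLF and CSLH come next. CSLF6, whose product is the main mixed-linkage glucan synthase in rice, was at 315, 319 and 261 in the overexpressor, against 186, 136 and 28.1 in the empty vector line. Replicate 3 of the empty vector line was below background for this gene. The log2 change was 1.50 ± 0.56 (SE, 3 arrays a line; limma adjusted p = 0.288), and it was 0.84 without empty vector replicate 3. The 2 other CSLF6 probe sets were below background on all 6 arrays, and averaging all 3 gave a log2 change of 0.49.

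CSLH1 was at 1068, 1394 and 1273 in the overexpressor, against 874, 427 and 635 in the empty vector line. The lowest overexpressor array was 1.22 times the highest empty vector array. Its log2 change was 0.98 ± 0.30 (SE, 3 arrays a line; limma adjusted p = 0.194), and it was 0.64 without both replicate 2 arrays.

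The other CSLF genes were not detected above background. CSLF2, CSLF7 and CSLF8 were below it on all 6 arrays, at 0.975 to 23.8. In the gene table CSLF9, CSLF8, CSLF2, CSLF4 and CSLF3 follow one another on chromosome 7 with at most 1 other coding gene between neighbours, and CSLF8 and CSLF2 are the measured genes of this cluster. CSLH1 and CSLF7 lie near each other on chromosome 10, with 6 coding genes between them, and only CSLH1 was above background.

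**Figure D3:**
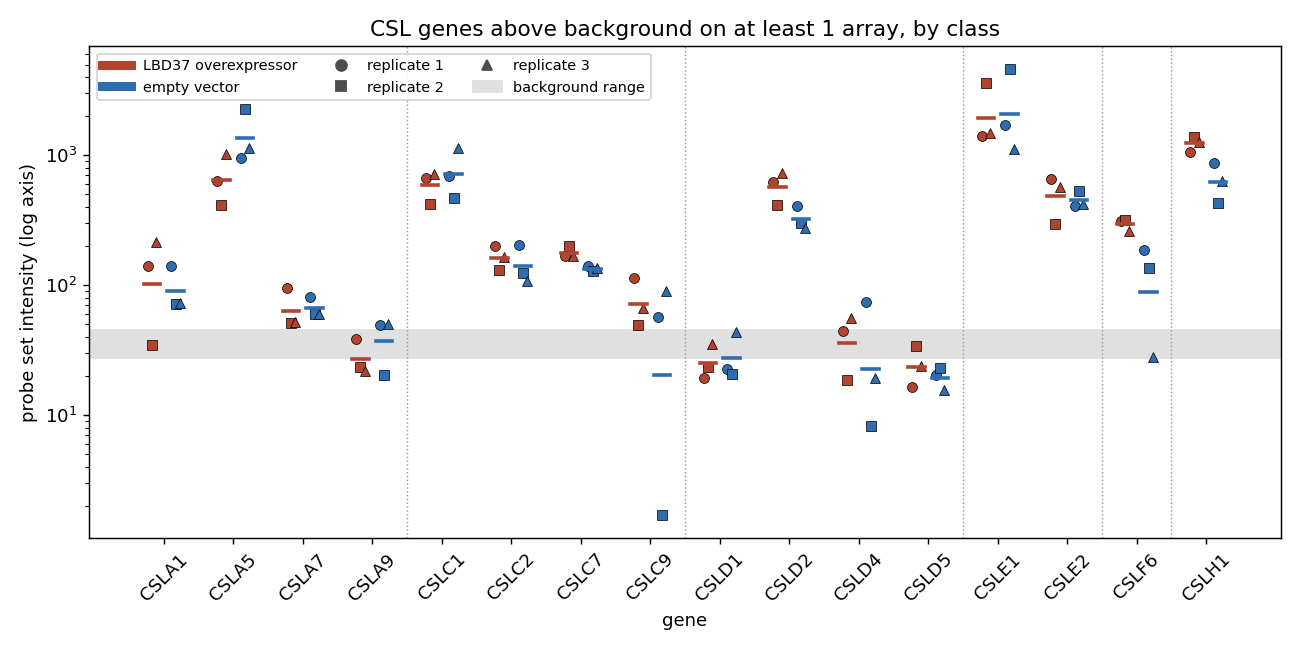
Probe set intensity of the 16 CSL genes that were above background on at least 1 array, on a log axis, with the overexpressor left of the empty vector, a symbol per replicate, a bar at the geometric mean and the range of background in grey. Dotted lines separate the classes CSLA, CSLC, CSLD, CSLE, CSLF and CSLH, and the lines are apart for CSLC7, CSLD2, CSLF6 and CSLH1.

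Of the 4 measured CSLD genes, CSLD2 was at 620.4, 418 and 733 in the overexpressor, against 405, 303 and 277 in the empty vector line. These lines do not overlap, although overexpressor replicate 2 and empty vector replicate 1 were 1.03 times apart. The log2 change was 0.80 ± 0.29 (SE, 3 arrays a line; limma adjusted p = 0.277). CSLD1, known from rice root hairs, CSLD4, known from mutants with narrow and rolled rice leaves, and CSLD5 lay at 8.17 to 74.8 and above background on at most 3 of the 6 arrays, with log2 changes of -0.08, 0.32 and 0.17.

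In the CSLC class the lines overlapped for 4 of 5 genes. CSLC1 was at 673, 425 and 716 in the overexpressor, against 689.8, 469 and 1138 in the empty vector line, with a log2 change of -0.28 ± 0.37 (SE, 3 arrays a line; limma adjusted p = 0.803). CSLC7 was at 167, 199 and 167 in the overexpressor, against 140.4, 128 and 135 in the empty vector line. The lines did not overlap, and the log2 change was small, at 0.36 ± 0.27 (adjusted p = 0.618). Its probe set carries the suffix for probes that may also bind other transcripts, as does the CSLD4 probe set. CSLC9 was at 114, 49.2 and 66.7 in the overexpressor, against 56.6, 1.68 and 89.9 in the empty vector line, where replicate 2 was below background, and had a log2 change of 0.79 ± 0.69, or 0.24 without both replicate 2 arrays. CSLC2 had a log2 change of 0.20 ± 0.34 with overlapping lines, and CSLC3 was below background on all arrays.

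In the CSLA class, 3 of 4 genes had log2 changes below 0. CSLA5 was at 635, 413 and 1020.3 in the overexpressor, against 959, 2277 and 1139 in the empty vector line. Its log2 change was -1.05 ± 0.43 (SE, 3 arrays a line; limma adjusted p = 0.332), the lowest of the family. Overexpressor replicate 3 lay above empty vector replicate 1. The log2 change was -0.37 with the replicate 2 arrays of both lines left out. CSLA1, which has CSLA9 as a further synonym, was at 140.5, 34.8 and 217 in the overexpressor, against 140.3, 71.2 and 72.5 in the empty vector line. Its overexpressor arrays spread over 6.22 times, replicate 2 being the lowest, and the log2 change was 0.21 ± 0.60, or 0.70 without both replicate 2 arrays. CSLA7 and the other gene named CSLA9 had log2 changes of -0.05 and -0.32 with overlapping lines.

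The CSLE genes, for which no product is named here, overlapped between the lines on the probe sets used. CSLE1 was at 1402, 3599.8 and 1481 in the overexpressor, against 1705, 4656 and 1114 in the empty vector line. Replicate 2 was the highest array of both lines, and the log2 change was -0.08 ± 0.58 (SE, 3 arrays a line; limma adjusted p = 0.972). CSLE2 was at 663, 297 and 570.4 in the overexpressor, against 410.04, 529 and 425 in the empty vector line, and had a log2 change of 0.09 ± 0.34 (adjusted p = 0.939). Without both replicate 2 arrays it was 0.54 (limma adjusted p = 0.192). Its 3 probe sets disagreed in size, since the others gave 0.47 ± 0.31 and 0.97 ± 0.36, and for the last of these the lines did not overlap.

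Members differed in how they followed the replicate number. Replicate 2 departed over 2-fold from the mean of replicates 1 and 3, in 1 direction in both lines, for 2 of the 29 genes, against 5.91% of all genes, 2.86% higher and 3.06% lower. CESA2 was lower in replicate 2 by 6.52-fold in the overexpressor and 6.15-fold in the empty vector line. CSLE1 was higher there by 2.48-fold and 3.35-fold. CESA6 departed by 1.05-fold and 1.10-fold (log2 -0.07 and -0.14). For CESA5 and CSLA5 replicate 2 went opposite ways in the lines, lower in the overexpressor by 2.18-fold and 1.91-fold, and higher in the empty vector line by 1.63-fold and 2.16-fold.

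**Figure D4:**
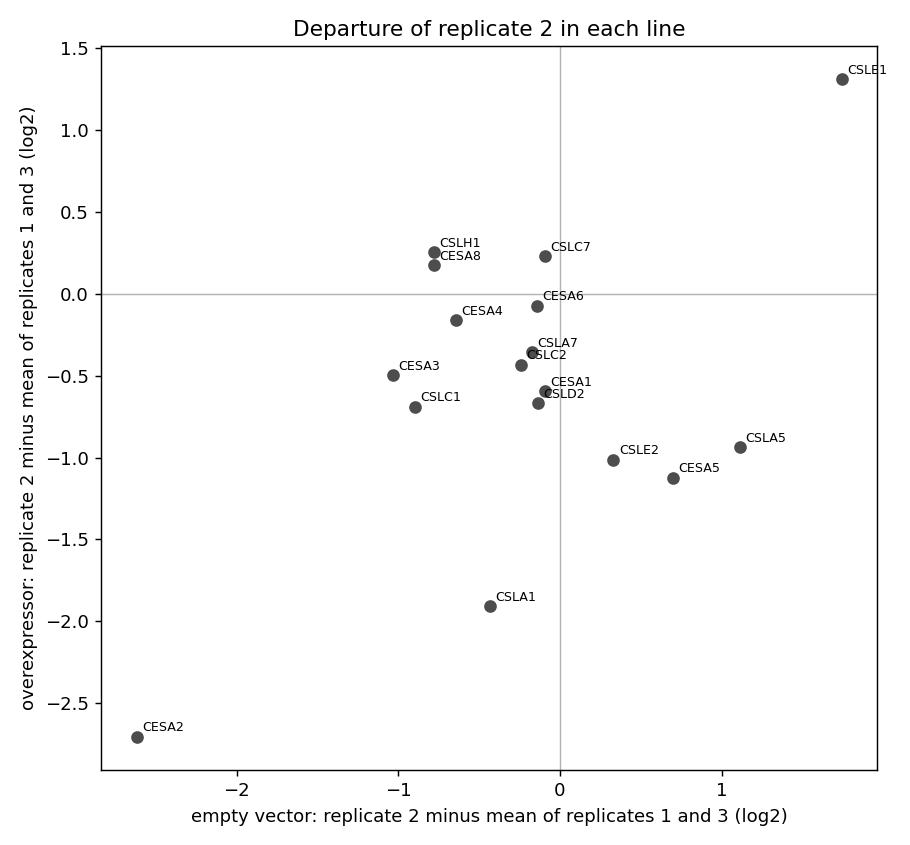
The departure of replicate 2 from the mean of replicates 1 and 3 on the log2 scale, in the overexpressor (vertical axis) and in the empty vector line (horizontal axis), for the 16 genes above background on all arrays and CESA2. CESA2 is low and CSLE1 is high in replicate 2 of both lines, and CESA6 lies near the origin.

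Genes that work with the cellulose synthases were described from a list of 12 measured genes, of endoglucanases, COBRA-family proteins that anchor to the membrane and act in microfibril assembly, and sucrose synthases, which supply UDP-glucose. By limma 0 of 12 passed, with 2 at an unadjusted p under 0.05, both higher, where 8.49% of all genes were higher at that level, and a median log2 change of 0.46 against 0.01 over all genes. BC1L6, of the COBRA family, was at 307, 779 and 721 in the overexpressor, against 118, 126 and 40.7 in the empty vector line. The lines were apart on every array, and the log2 change was 2.49 ± 0.50 (SE, 3 arrays a line; limma adjusted p = 0.086).

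GLU2, of the endoglucanase family to which the KORRIGAN enzyme of Arabidopsis cellulose synthesis belongs, was at 2674, 1988 and 2149 in the overexpressor, against 1196, 597 and 465 in the empty vector line. Its lines did not overlap either, with a log2 change of 1.68 ± 0.36 (SE, 3 arrays a line; limma adjusted p = 0.0954, and 0.0503 with the replicate block). BC1L9, also of the COBRA family, overlapped between the lines at 5643, 1895 and 4497 in the overexpressor, against 2857.5, 1658 and 1665, with a log2 change of 0.86 ± 0.44 (adjusted p = 0.442). BC1 itself, known from brittle culms, had 0.64 ± 0.54 with overlapping lines. GLU1, the other measured endoglucanase, had a log2 change of 0.07 ± 0.35, also with overlapping lines (limma adjusted p = 0.961). The 6 measured sucrose synthase genes had log2 changes from -0.53 for SUS6 to 0.61 for SUS1. SUS6 was lower on every overexpressor array, at 33.3, 34.1 and 23.2, against 65.3, 42.4 and 45.4 in the empty vector line (limma adjusted p = 0.528). Over all genes 9.36% were lower without overlap. These SUS6 values lay close to background, overexpressor replicate 3 being below it, and its other probe set is not described here. For the other sucrose synthase genes the lines overlapped.

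A list of 12 measured genes for other matrix polysaccharides, mostly of xylan and xyloglucan, also had 0 past the test by limma, with 4 at an unadjusted p under 0.05, all higher, and a median log2 change of 0.48. Over all genes 8.49% were higher at that level and the median was 0.01. XXT1, a xyloglucan xylosyltransferase, was at 646, 1449 and 1501 in the overexpressor, against 379, 422 and 291 in the empty vector line. The lines did not overlap, and the log2 change was 1.60 ± 0.37 (SE, 3 arrays a line; limma adjusted p = 0.106). Averaging all probe sets of XXT1 gave 0.87. XAT2, which adds arabinose to xylan, was at 140.02, 131 and 177 in the overexpressor, against 63.1, 33.1 and 72.7, with a log2 change of 1.23 ± 0.36 (adjusted p = 0.185).

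GT47D, a glycosyltransferase of the family that holds xylan enzymes, was at 194, 98.0 and 181 in the overexpressor, against 65.7, 54.8 and 79.2 in the empty vector line, with a log2 change of 1.03 ± 0.37 (limma adjusted p = 0.261). UAM1, a mutase that makes the arabinose donor, overlapped between lines and had 0.82 ± 0.30 (adjusted p = 0.275). Of the xylan genes, IRX14 had 0.38 ± 0.23 with lines apart, and IRX9L had the lowest change of the list, -0.34 ± 0.26, with overlapping lines.

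**Figure D5:**
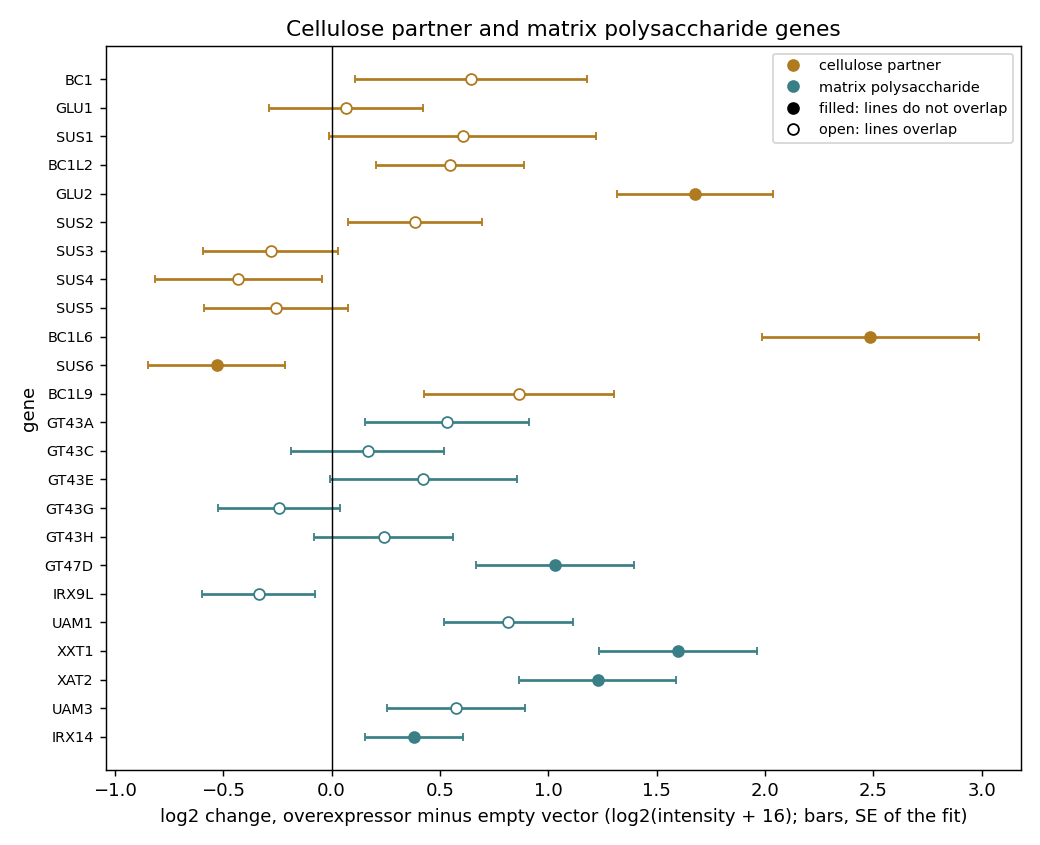
The log2 change of the 12 cellulose partner genes and the 12 matrix polysaccharide genes, overexpressor minus empty vector, with bars for the SE of the fit and filled points where the lines do not overlap. BC1L6, GLU2 and XXT1 lie farthest right, at 2.49, 1.68 and 1.60.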

How the data were processed

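The deposited values are probe set intensity on a linear scale, which the authors had scaled to a trimmed mean of 500.1 per array. The sources used here do not state how probes were summarised. Labelling was from biotinylated cRNA on an Affymetrix rice array, per the labels' protocols. Of 57381 probe sets, 187 controls were left out. A platform annotation paired 22436 of the others with 1 gene, 95 with several and 34663 with none, and gene names follow RefSeq for assembly ASM3414082v1.

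limma 3.58.1 in R 4.3.3 was fitted on log2(intensity + 16) over all 57194 rice probe sets, overexpressor minus empty vector, 2-sided, with a variance trend. For a gene with several probe sets the one highest on average over the 6 arrays was used, and p-values were adjusted over genes. The fit was tested on simulated data. Members and lists were chosen with earlier results of these data known; a bHLH gene that shares the synonym BC1 was left out. Genes named are all CESA genes, in each CSL class the brightest and the one with the smallest p, all with an unadjusted p under 0.05, and the 3 with the smallest p of each further list; other members are given more briefly, and other genes of the further lists were chosen after their values were seen.

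The labels speak of independent hybridizations, so p-values cover the spread among these arrays alone, which may be technical, and the number of arrays limits the precision. Deviations from the line means correlated at 0.356, 0.424 and 0.272 between arrays of the same replicate number, against -0.45 to 0.302 between other numbers. The 0.302, between overexpressor replicate 1 and empty vector replicate 3, was above the 0.272 of the replicate 3 arrays. These correlations therefore do not settle whether the numbers in the titles mark pairs. The main fit leaves the number out, and values from a fit blocked on it stand beside results whose call they change.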

Additional observations from a re-analysis of the deposited data

How the results depend on the processing

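The 93 genes past the threshold became 234 with the replicate block, 404 with array weights, 169 after median centring, 239 without both replicate 2 arrays and 4 to 35 with single arrays left out, without replicate 1 of the empty vector line or replicate 3 of the overexpressor giving the fewest. The 59 probe sets became 39 with an offset of 64, 146 after median centring, 160 among probe sets above background on at least 3 arrays, 232 with array weights, 27 without both replicate 2 arrays and 5 to 19 with single arrays left out. The count of CESA and CSL genes, 0, became 2 with the replicate block, 2 with array weights and 2 under median centring, each time CESA1 and CESA6, and 1, CESA6, after quantile normalization; it was 0 under all other alternatives, as were those of both further lists under all. Blocking by replicate moved none of the other named genes past the threshold. No named gene had passed in the main fit, so a turned sign could only fall on genes that had not passed. Signs turned for CESA2, CSLC1, CSLE1 and CSLE2. The log2 change of CSLE1 was 0.012 with array weights and 0.063 without both replicate 2 arrays. With single arrays left out, log2 changes ranged from -1.46 to 0.31 for CESA2, from -0.58 to 0.050 for CSLC1, from -0.52 to 0.50 for CSLE1 and from -0.13 to 0.43 for CSLE2. The cause of these moves was not tested. Log2 changes of CESA1 lay between 1.75 and 2.30 over all 16 alternatives, and those of CESA6 between 1.94 and 2.58. Genes close to background, among them CESA7, CESA9 and most CSLD and CSLF genes, are limited by it.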
